A study of Sus scrofa with 4 samples.

Results

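miR-130a and miR-130b are a pair of miRNAs read from separate hairpins with a shared seed, and their reads were followed in pig vascular stem cells with and without adipogenic induction. The members were the entries named mir-130a and mir-130b among the pig hairpins of each file. Each had 1 hairpin entry in every library, so 2 of the 189 miRNAs with a read are described. Small RNA was sequenced from 4 libraries of primary cells at passage 1, with 1 library in each group. SVSC MDI and SVSC are cells of subcutaneous fat with and without induction, and IVSC MDI and IVSC are cells of the longissimus dorsi muscle of the back with and without it. MDI stands for 0.5 mM IBMX, 0.25 µM dexamethasone and 5 mg/l insulin, added 2 days after the cells became confluent. IBMX, which blocks phosphodiesterases, and dexamethasone, a glucocorticoid, were taken out after 3 days. The growth medium was given back at day 6, and the cells went on for another 3 or 4 days. The sources used here do not give which of these applied to each culture, when the uninduced cells were harvested or how many animals stand behind a culture. IVSC cells were plated more densely than SVSC cells. All media held 20% serum, and all 4 libraries carry the label of adipose-derived cells, those of muscle included.

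A miRNA is cut from a hairpin transcript, loaded into an Argonaute protein and guided to messenger RNAs mainly by its seed, so miRNAs with a shared seed have largely shared targets. miR-130a and miR-130b are known to repress PPARG, the nuclear receptor that drives the formation of fat cells, and raising them in preadipocytes is known to hold back that process. In human and mouse the main product of both hairpins comes from the 3′ arm. In the RefSeq gene table of the pig assembly Sscrofa11.1 the hairpins span 79 and 80 bases and lie on different chromosomes. MIR130A lies next to the protein-coding gene YPEL4, and MIR130B overlaps the protein-coding gene LOC100155534 and lies next to SDF2L1.

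The libraries held 2573249 to 17937121 miRNA reads over 181 to 187 miRNAs, the fewest in SVSC MDI. A level is given as CPM, the reads of a miRNA per 1000000 miRNA reads of its library, over all reads on the hairpin unless mature or exact reads are named. Ranges in parentheses are exact 95% intervals that cover counting error only. With 1 library in each group, no ratio between libraries has a replicate check, and any difference between animals, preparations or harvest days is part of it. Of the counts summed over all features, the hairpins took 55.01% in SVSC MDI and Ensembl non-coding RNAs 38.5%. In the other libraries hairpins took 70.2% to 77.0% and the non-coding RNAs 13.99% to 19.3%. A read that matches more than 1 feature can count more than once in these sums. They hold 2842034 hairpin counts in SVSC MDI, against 2573249 miRNA reads. The mesenchymal and perivascular list (miR-143, miR-145, miR-199a, miR-199b and miR-214) was read throughout, at a summed 262057 to 409082 CPM. In each library miR-143 took most of that sum, with 1004338 of 1052671 reads in SVSC MDI and 4586638 of 4700540 in SVSC. Nearly all of these miR-143 reads, 1003810 and 4583290, lay on its hairpin outside the annotated mature miRNA. Of 6 epithelial markers miR-205 alone was measured, at 0.151 to 3.50 CPM. Of 4 blood cell markers, miR-142 and miR-451 were measured and summed to 7.97 to 34.9 CPM. The liver miR-122 stood at 1.94 CPM in SVSC MDI to 24.1 CPM in SVSC. The neuronal miR-9 and miR-124a summed to 12.7 CPM in IVSC to 77.7 CPM in SVSC MDI. The endothelial miR-126 stood at 63.7 CPM in SVSC MDI, 52.6 CPM in SVSC, 89.6 CPM in IVSC MDI and 134 CPM in IVSC.

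miR-130b had more reads than miR-130a in SVSC, IVSC MDI and IVSC and about as many in SVSC MDI, and both stood lower with MDI in each culture. miR-130b was counted at 499 reads (194 CPM) in SVSC MDI and 13056 reads (728 CPM) in SVSC. In muscle cells it had 4065 reads (274 CPM) in IVSC MDI and 11473 reads (866 CPM) in IVSC. By abundance miR-130b held rank 80 in SVSC MDI, 46 in SVSC, 71 in IVSC MDI and 43 in IVSC. miR-130a was counted at 445 reads (173 CPM) in SVSC MDI and 6977 reads (389 CPM) in SVSC. It had 3000 reads (203 CPM) in IVSC MDI and 5744 reads (433 CPM) in IVSC, and its ranks were 83, 59, 81 and 60 in the same order of libraries. For both members the order of levels was IVSC, SVSC, IVSC MDI and SVSC MDI from high to low, with the widest gap between the uninduced and the induced libraries. Over both members the summed level was 367 CPM in SVSC MDI, 1117 CPM in SVSC, 477 CPM in IVSC MDI and 1299 CPM in IVSC.

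**Figure D1:**
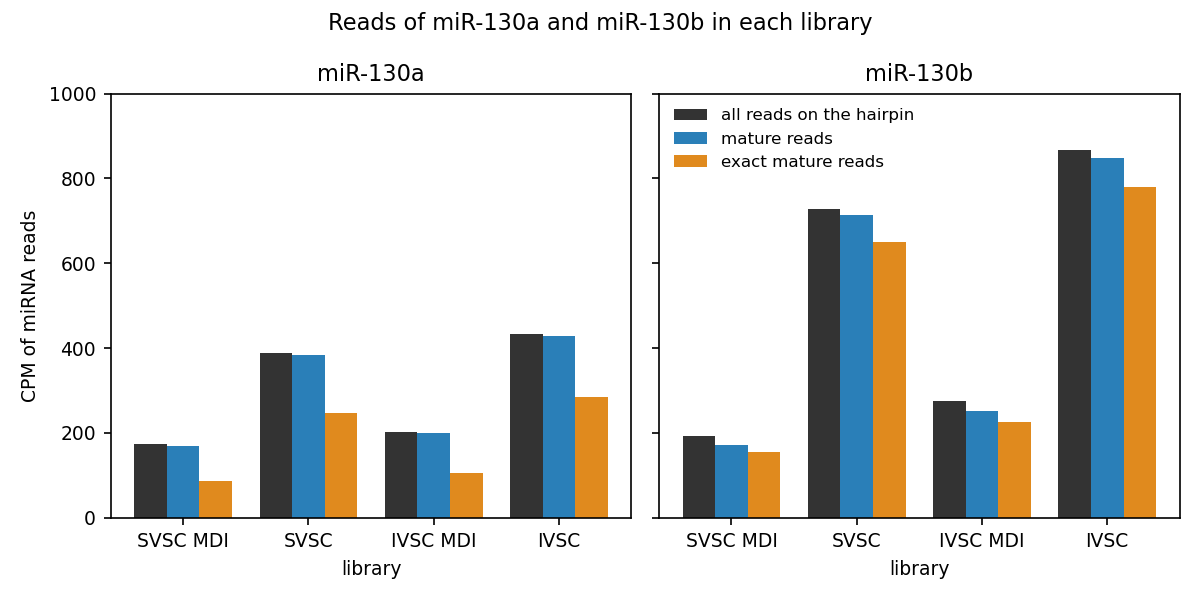
CPM (reads per 1000000 miRNA reads, linear axis from 0) of miR-130a (left) and miR-130b (right) in each library, with 1 bar for all reads on the hairpin, 1 for mature reads and 1 for reads that match the mature miRNA exactly (n = 1 library per group, no error bars). The bars of SVSC MDI and IVSC MDI are the lowest in both panels, and the exact bars lie well below the mature bars for miR-130a only.

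In fat-derived cells the question was how far both members moved with induction. miR-130b fell 3.75-fold (3.43 to 4.11) in SVSC MDI relative to SVSC. miR-130a fell 2.25-fold (2.04 to 2.48). Fell stands for a ratio of 2-fold or more whose interval excludes 1, and the miRNAs compared had 10 CPM or more in 1 library of the pair or in both. Of 146 miRNAs compared, 21.9% fell by this rule, and both members were among them. From the lowest log2 ratio upwards miR-130b held rank 10 and miR-130a rank 28, where the median log2 ratio of all 146 was 0.41. The split of all calls in this culture depended on the scaling, with 50 miRNAs higher and 32 lower under miRNA reads, against 36 higher and 45 lower under TMM.

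The fall in fat-derived cells was also read on mature and exact reads, each over all miRNA reads. On mature reads, miR-130b had 171 CPM in SVSC MDI and 715 CPM in SVSC, a 4.18-fold fall (3.80 to 4.61). On exact mature reads it had 155 CPM in SVSC MDI and 650 CPM in SVSC, a 4.20-fold fall (3.80 to 4.66). miR-130a had 169 mature CPM in SVSC MDI and 384 in SVSC, a 2.27-fold fall (2.06 to 2.50). Its exact reads stood at 87.8 CPM in SVSC MDI and 248 CPM in SVSC, a 2.82-fold fall (2.47 to 3.24). So the step from mature to exact reads made the fall of miR-130a larger and left that of miR-130b nearly the same. At these reads 22.3% of 121 miRNAs (mature) and 19.6% of 102 miRNAs (exact) fell. When mature reads were instead scaled to the total of mature reads, the log2 ratio of miR-130a was -0.87, short of 2-fold, and that of miR-130b was -1.76, against -1.17 and -1.91 on all reads of the hairpins.

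In muscle-derived cells both members fell as well. miR-130b fell 3.15-fold (3.04 to 3.27) in IVSC MDI relative to IVSC, and miR-130a 2.14-fold (2.05 to 2.24). Of 152 miRNAs compared, 23.7% fell, and miR-130b held rank 16 and miR-130a rank 31 from the lowest, with a median log2 ratio of -0.035 over all of them. On mature reads miR-130b had 251 CPM in IVSC MDI and 847 CPM in IVSC, a 3.38-fold fall (3.25 to 3.50). On exact mature reads it had 225 CPM in IVSC MDI and 779 CPM in IVSC, a 3.46-fold fall (3.33 to 3.60). miR-130a had 199 mature CPM in IVSC MDI and 429 in IVSC, a 2.15-fold fall (2.06 to 2.25), and 105 exact CPM in IVSC MDI and 284 in IVSC, a 2.71-fold fall (2.55 to 2.87). On mature reads 20.6% of 126 miRNAs fell, and on exact reads 16.3% of 104 did. Under scaling to all reads of the file the log2 ratio of miR-130a was -0.88, short of 2-fold.

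**Figure D2:**
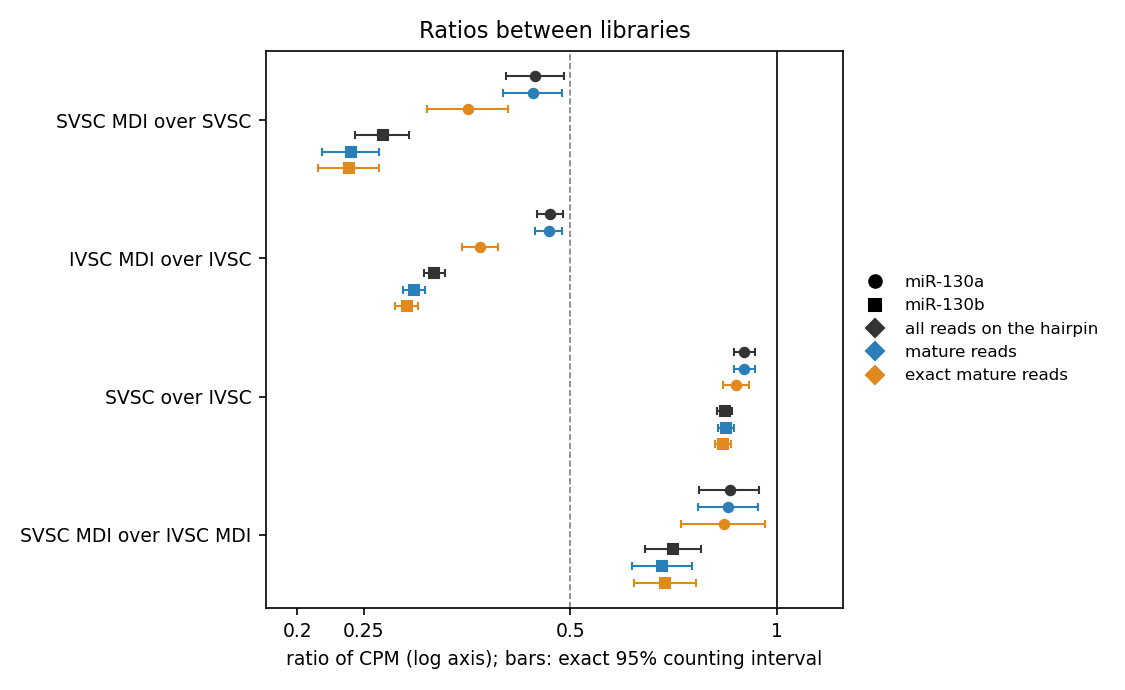
Ratio of CPM between libraries (log axis) for miR-130a (circles) and miR-130b (squares), for all reads on the hairpin, mature reads and exact mature reads. Bars are exact 95% counting intervals, the solid line marks a ratio of 1 and the dashed line a 2-fold lower level. All MDI ratios lie left of the dashed line, with miR-130b further left than miR-130a, and all ratios of SVSC to IVSC cells lie between the 2 lines.

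The induction was then compared between cultures. Among 143 miRNAs compared in both, 10.5% were lower by at least 2-fold in both cultures, miR-130a and miR-130b among them. The MDI log2 ratio of miR-130b was -1.91 in SVSC and -1.66 in IVSC, a difference of -0.25 (-0.39 to -0.11; normal approximation from the read counts). That of miR-130a was -1.17 in SVSC and -1.10 in IVSC, a difference of -0.072 (-0.22 to 0.080). This interval, under miRNA reads, holds 0. The sizes of these differences depended on the scaling. They ran to -0.95 for miR-130b and -0.78 for miR-130a under all reads of the file, and stayed negative under each of the 5 scalings. For miR-130a the interval left out 0 under TMM (-0.69 to -0.38) and DESeq2 size factors (-0.63 to -0.33). It also left out 0 under all reads of the file (-0.93 to -0.62) and miRNA reads without miR-21 (-0.71 to -0.40). On mature and on exact reads, each over all miRNA reads, the interval of miR-130a held 0.

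An additive model over all 4 libraries, with the culture as a block, gave the one test of MDI that the design allows. In edgeR's quasi-likelihood test with Benjamini-Hochberg adjustment over 179 miRNAs, miR-130b was lower with MDI in 2 of 2 cultures by a log2 of -1.95 (SE 0.58), at an adjusted p of 0.0236. It was 1 of 8 miRNAs called lower, 4.47% of those tested, while 6.15% were called higher. For miR-130a the log2 was -1.30 (SE 0.61), lower in 2 of 2 cultures, with an adjusted p of 0.150 in edgeR, which did not pass 0.05. On mature reads the same edgeR test gave miR-130a an adjusted p of 0.0387, which passed. Without the culture as a block miR-130b had an adjusted p of 0.130 in edgeR. The spread in this test is the difference of the MDI effect between cultures, shared over all miRNAs, and not that between animals.

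Between tissues of origin the pair differed little, and neither member passed 2-fold. Before induction, miR-130b in SVSC was 0.841 times its level in IVSC (0.820 to 0.862), and miR-130a 0.897 times (0.866 to 0.929). These lay near the median of all 148 miRNAs, whose log2 ratio was -0.25, where those of miR-130b and miR-130a were -0.25 and -0.16. The direction did not hold across scalings, since the log2 ratio of miR-130b turned to 0.095 and that of miR-130a to 0.19 under TMM. By the same rule 20.9% of the 148 were lower and 7.43% higher in SVSC. After induction, miR-130b in SVSC MDI was 0.707 times its level in IVSC MDI (0.642 to 0.776) and miR-130a 0.854 times (0.771 to 0.943). Under scaling to all reads of the file that of miR-130b reached a log2 of -1.02, past 2-fold lower. Of 147 miRNAs 10.2% were lower and 17.7% higher in SVSC MDI. On mature and exact reads the ratios of miR-130b were 0.681 and 0.688 after induction and 0.844 and 0.835 before it. In edgeR's additive fit the origin effect was -0.21 (SE 0.56) for miR-130b and -0.032 (SE 0.60) for miR-130a, both at an adjusted p of 0.996, where 2.23% of 179 miRNAs were lower and 0.559% higher.

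The balance within the pair needs no scaling between libraries, because both members are read in the same library. The files held 1.12 miR-130b reads per miR-130a read in SVSC MDI (0.985 to 1.28), against 1.87 in SVSC (1.82 to 1.93). They held 1.36 in IVSC MDI (1.29 to 1.42), against 2.00 in IVSC (1.93 to 2.06). With MDI the balance was thus 0.599 times that before it in fat-derived cells (0.526 to 0.683) and 0.678 times in muscle-derived cells (0.641 to 0.718; both normal approximations from the read counts). Both intervals leave out 1. On mature reads the balance was 1.01 in SVSC MDI and 1.86 in SVSC, and 1.26 in IVSC MDI and 1.98 in IVSC, so the pair was about even in SVSC MDI. On exact reads it was 1.76 in SVSC MDI and 2.63 in SVSC, and 2.14 in IVSC MDI and 2.74 in IVSC. How efficiently each sequence is ligated and amplified was not measured, so the balance compares libraries and does not count molecules.

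The mature reads of the members differed in how many matched the mature sequence exactly. Of the mature reads of miR-130a, 51.8% were exact in SVSC MDI (47.03% to 56.6%) and 64.4% in SVSC (63.3% to 65.5%). In muscle-derived cells 52.6% were exact in IVSC MDI (50.8% to 54.4%) and 66.3% in IVSC (65.02% to 67.5%). The exact share of miR-130a thus differed with MDI by -12.6 percentage points in fat-derived cells and -13.6 in muscle-derived cells, with no overlap of the intervals in either culture. Among miRNAs with at least 100 mature reads in both libraries, 26.1% of 92 in fat-derived cells and 13.4% of 119 in muscle-derived cells lost 10 points or more, so a loss of this size was not rare in SVSC MDI. The mature reads of miR-130a that were not exact stood at 81.6 CPM in SVSC MDI and 136.8 CPM in SVSC, and at 94.5 CPM in IVSC MDI and 144.7 CPM in IVSC, which is 1.68-fold (1.45 to 1.94) and 1.53-fold (1.43 to 1.64) lower. Which bases these reads differ in, by length or by mismatch, is not recorded in the columns used.

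miR-130b was read mostly in its exact form in all 4 libraries. Of its mature reads 90.5% were exact in SVSC MDI (87.3% to 93.03%) and 90.9% in SVSC (90.4% to 91.4%), and 89.5% in IVSC MDI (88.5% to 90.5%) and 91.9% in IVSC (91.4% to 92.4%). The intervals overlap in fat-derived cells, with a change of -0.48 points, and do not overlap in muscle-derived cells, with a change of -2.37 points. The medians over all miRNAs compared were -0.97 and -0.82 points, and by change from the lowest miR-130b held rank 50 of 92 and 49 of 119.

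The share of miR-130b reads on the rest of its hairpin, outside the annotated mature miRNA, was higher with MDI in both cultures. This share was 11.8% in SVSC MDI (9.12% to 14.99%) and 1.79% in SVSC (1.57% to 2.03%), on 59 and 234 reads. It was 8.54% in IVSC MDI (7.70% to 9.44%) and 2.13% in IVSC (1.87% to 2.41%), on 347 and 244 reads. The intervals of the induced and uninduced library do not overlap in either culture. The share was 6.60 times as high with MDI in fat-derived cells, rank 1 of 92 miRNAs, and 4.01 times in muscle-derived cells, rank 3 of 119. A share at least 2-fold higher was seen for 20.7% and 6.72% of those miRNAs, and the medians were 0.988 and 0.937. In miR-130a the share on the rest of the hairpin was 2.02% in SVSC MDI (0.929% to 3.80%) and 1.20% in SVSC (0.961% to 1.49%). It was 1.57% in IVSC MDI (1.15% to 2.08%) and 1.08% in IVSC (0.829% to 1.38%), with intervals that overlap in both cultures. The star columns held 0 reads for both members in every library, so reads of the opposite arm, if any, would be counted on the rest of the hairpin, and the arm was not resolved.

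In CPM, the reads on the rest of the miR-130b hairpin did not share the fall of the mature reads. They stood at 22.9 CPM in SVSC MDI and 13.0 CPM in SVSC, a ratio of 1.76 (1.30 to 2.35), and at 23.4 CPM in IVSC MDI and 18.4 CPM in IVSC, a ratio of 1.27 (1.08 to 1.51). Neither ratio reached 2-fold. Over 111 miRNAs with 10 CPM or more of such reads, the median log2 ratio in fat-derived cells was 0.61. That of miR-130b was 0.81, rank 65 from the lowest, so a higher level was not particular to it there. In muscle-derived cells the median of 104 miRNAs was -0.13, and miR-130b stood at 0.35, rank 77. Under TMM, DESeq2 size factors, all reads of the file and miRNA reads without miR-21 the ratio of miR-130b in fat-derived cells was 1.24 to 1.33 with intervals that held 1. In muscle-derived cells it was 1.24 to 1.48 under these, with intervals that left out 1. For miR-130a the rest of the hairpin stood at 3.50 CPM in SVSC MDI and 4.68 CPM in SVSC, on 9 and 84 reads, and at 3.17 CPM in IVSC MDI and 4.68 CPM in IVSC, on 47 and 62 reads, with intervals of both ratios that held 1. In muscle-derived cells the interval left out 1 under TMM (0.442 to 0.980) and DESeq2 size factors (0.448 to 0.994). The mature reads of both members were all unique to their own hairpin among the hairpins listed.

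**Figure D3:**
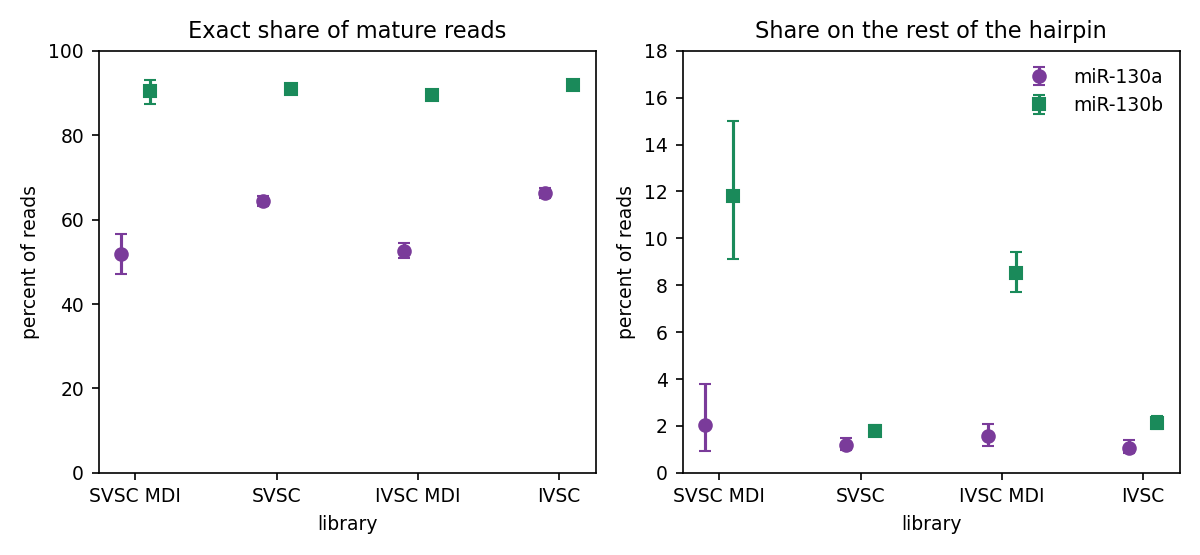
Percent of the mature reads that match the mature miRNA exactly (left, axis 0 to 100) and percent of all hairpin reads on the rest of the hairpin (right, axis 0 to 18), for miR-130a (circles) and miR-130b (squares) in each library. Bars are exact 95% binomial intervals, for counting error only. The exact share of miR-130a is lower in both MDI libraries, and the rest of the miR-130b hairpin takes 11.8% in SVSC MDI and 8.54% in IVSC MDI against about 2% in the uninduced libraries.

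Of 10 names in the list of the miR-130 and miR-301 seed family 3 were measured, and the members supplied nearly all of its reads. miR-301, the third, had 0 reads in SVSC MDI, 12 in SVSC, 5 in IVSC MDI and 7 in IVSC, of which 1 read, in SVSC, lay on the mature miRNA. The 0 reads in SVSC MDI allow a level of up to 1.17 CPM. miR-301b, the neighbour of miR-130b in the human and mouse genomes, and miR-454, both of the same seed family, were not analysed here as pig hairpins. The summed level of miR-130a and miR-130b fell 3.04-fold (2.85 to 3.25) in SVSC MDI relative to SVSC and 2.72-fold (2.65 to 2.80) in IVSC MDI relative to IVSC. In a culture measured in bulk, fewer cells of a type and less of a miRNA per cell cannot be told apart.

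miR-27a and miR-27b, which are also known to repress PPARG, did not share this fall. miR-27a stood at 10829 CPM in SVSC MDI and 6420 CPM in SVSC, a ratio of 1.69 (1.66 to 1.71), and at 6027 CPM in IVSC MDI and 5926 CPM in IVSC, a ratio of 1.02 (1.01 to 1.03). miR-27b stood at 3830 CPM in SVSC MDI and 2773 CPM in SVSC, a ratio of 1.38 (1.35 to 1.41), and at 1894 CPM in IVSC MDI and 1074 CPM in IVSC, a ratio of 1.76 (1.73 to 1.80). None of these ratios passed 2-fold under miRNA reads. Under TMM the ratio of miR-27a was 1.19 in fat-derived and 0.990 in muscle-derived cells and that of miR-27b was 0.974 and 1.72, and under all reads of the file miR-27b reached 2.05 in muscle-derived cells. As a share of the reads of these 4 miRNAs, the miR-130 pair took 2.44% in SVSC MDI and 10.8% in SVSC, and 5.68% in IVSC MDI and 15.7% in IVSC. miR-27b was 2.58-fold higher in SVSC than in IVSC (2.53 to 2.63) and 2.02-fold higher in SVSC MDI than in IVSC MDI (1.98 to 2.07), where the 4 other scalings gave 1.41 to 1.97, short of 2-fold. In edgeR's additive fit its origin effect was a log2 of 1.35 (SE 0.56), higher in 2 of 2 comparisons, at an adjusted p of 0.213, which did not pass. miR-27a was 1.08 times as high in SVSC as in IVSC (1.07 to 1.09) and 1.80 times as high in SVSC MDI as in IVSC MDI (1.77 to 1.82).

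**Figure D4:**
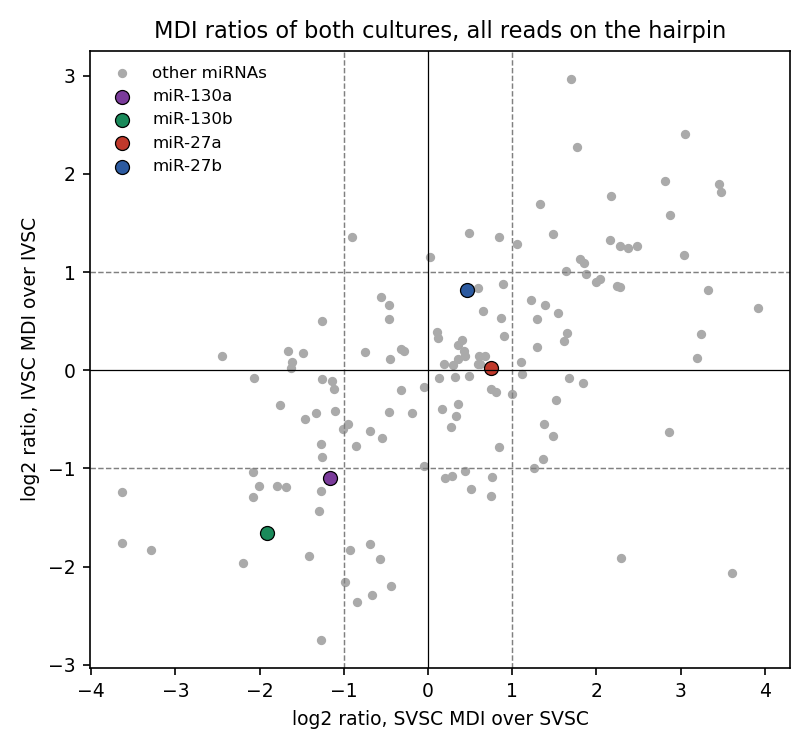
MDI log2 ratios of 143 miRNAs (all reads on the hairpin) in SVSC (x axis) and IVSC (y axis), with 1 point per miRNA. Dashed lines mark 2-fold, and the PPARG repressors named here are in colour. miR-130a and miR-130b lie in the lower left corner beyond both 2-fold lines, at -1.17 and -1.10 and at -1.91 and -1.66, while miR-27a and miR-27b lie right of 0 under miRNA reads (miR-27b at -0.038 in SVSC under TMM).

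Of 17 miRNAs reported to inhibit adipogenesis, 11 were compared in fat-derived cells, of which 4 fell and 1 rose with MDI, where 21.9% of all 146 miRNAs fell and 34.2% rose. The miR-130 pair makes up 2 of the 4. Besides the pair, let-7a and miR-363 fell and miR-145, a miRNA of smooth muscle, rose. The median log2 ratio of the 11, with the pair counted in it, was -0.32, against 0.41 over all miRNAs. The others compared stood at -3.29 (miR-363), -1.13 (let-7a), -0.99 (miR-221), -0.32 (miR-155), 0.35 (miR-222), 0.36 (miR-22), 0.47 (miR-27b), 0.75 (miR-27a) and 3.06 (miR-145). So this median does not describe the inhibitors apart from the pair. In muscle-derived cells 13 were compared, of which the miR-130 pair, miR-221 and miR-363 fell and miR-145 and miR-224 rose. Of all 152 miRNAs 23.7% fell and 16.4% rose. The median of the 13, again with the pair counted, was -0.11 against -0.035 over all. Of 19 miRNAs reported to promote adipogenesis, 16 were compared in each culture, of which 6 fell and 6 rose in fat-derived cells and 3 fell and 5 rose in muscle-derived cells. Their medians were -0.0051 and 0.13. The shares over all miRNAs are those just given, 21.9% lower and 34.2% higher in fat-derived cells and 23.7% lower and 16.4% higher in muscle-derived cells.

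The profile most like that of miR-130a over the 4 libraries was that of miR-152, of the miR-148 family. miR-152 had 2733 CPM in SVSC MDI, 6591 CPM in SVSC, 3065 CPM in IVSC MDI and 7192 CPM in IVSC. Likeness was the root mean square difference of log2 CPM profiles, each centred on its own mean, among 126 miRNAs at 10 CPM or more in all 4 libraries. It was 0.063 for miR-152, 0.13 for miR-17, of the miR-17-92 cluster, and 0.16 for miR-769. For miR-130b the closest were miR-4331 (0.24), miR-542 (0.24) and miR-320 (0.25). miR-130b ranked 10 by likeness to miR-130a, and miR-130a ranked 7 by likeness to miR-130b, at a difference of 0.34. With 4 libraries these likenesses are descriptions only.

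Other measures differed between the same libraries. The skeletal muscle list (miR-1, miR-133a, miR-133b, miR-206 and miR-499, all 5 read in each library) summed to 888 CPM in SVSC MDI and 1853 CPM in SVSC, and to 1137 CPM in IVSC MDI and 6275 CPM in IVSC. miR-206, made in skeletal muscle and its precursors, stood at 1.55 CPM in SVSC MDI, 2.79 CPM in SVSC, 139.6 CPM in IVSC MDI and 4874 CPM in IVSC. Under the same rule, of the 4 muscle miRNAs compared in SVSC MDI, miR-1 fell while miR-133a and miR-133b rose, with a median log2 ratio of 1.69. miR-1 took most of that sum, with 1700 of 2284 reads in SVSC MDI and 32606 of 33233 in SVSC. In IVSC MDI miR-133b and miR-206 fell among 5 compared and none rose, with a median of -0.49. The part of these muscle miRNAs in the fall of the miR-130 pair was not tested. The low depth and the high share of non-coding RNA reads in SVSC MDI stand beside the lower levels of the pair there. IVSC MDI, where the pair was lower too, had 14810112 miRNA reads against 13252168 in IVSC. Its share of non-coding RNA reads was 13.99%, against 19.3% in IVSC. The part of depth and of this share was not tested.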

How the data were processed

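The authors deposited whole read counts per feature for each of 4 small RNA libraries: per the file headers, these are hairpins of the pig, non-coding RNAs from Ensembl (Sscrofa9.61), Rfam families and piRNAs, with columns for exact mature, mature, star, other and total reads. In the SVSC file 1 column of uniquely matching mature reads holds a damaged Rfam value. That deposited column was used only for hairpins, where it is whole. There it gave the unique reads of further copies and of the members. Features with no resource name were left out, 3 in SVSC and 1 in SVSC MDI. In SVSC 7 other features, outside the hairpins, had a blank or unreadable total or mature count. A missing total adds nothing to all reads of the file. Not given in the sources used here: how reads were trimmed and aligned. A mouse build, mm9, stands in the submitters' processing notes without its role.

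Copies of a hairpin were counted once (the largest plus the unique reads of the others), and mir-18 and mir-20 were taken as miR-18a and miR-20a. CPM used the library's miRNA reads for all measures. The scaling to all reads of the file used the sum over all features, where copies were not merged. Ratios carry exact 95% Clopper-Pearson intervals (Python 3.11.15, SciPy 1.17.1, pandas 2.3.3, NumPy 2.4.6), and 3 reads was the floor of a count of 0. Intervals count reads, and with no molecular identifiers PCR copies of 1 molecule count more than once. The additive fit used edgeR 4.0.16 (R 4.3.3) with filterByExpr, TMM and quasi-likelihood F tests, leaving 1 residual degree of freedom. Its prior degrees of freedom were infinite, and the SE is the absolute log2 over the root of F. The other tool was DESeq2 1.42.0. Intervals and fits were checked on simulated data. Over 10 simulated draws the edgeR fit recovered 40.5% of 4-fold and 85.5% of 16-fold MDI changes. A change of 4-fold or less that did not pass in this fit is thus not shown to be absent.

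The members and lists were chosen with earlier results of these data known. Named beside the members were the detected miRNAs of the same seed, miR-27a and miR-27b, and the 3 closest profiles of each member. The rules on shares of exact reads and of the rest of the hairpin over all miRNAs, and the counts quoted from them, were added after the values were seen.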

Additional observations from a re-analysis of the deposited data

How the results depend on the processing

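The fall of miR-130b with MDI passed 2-fold under all 8 alternatives in both cultures (log2 -2.47 to -1.76 in SVSC, -1.70 to -1.44 in IVSC). That of miR-130a passed under 7 of 8 in each, the exceptions being -0.87 in SVSC on mature reads over all mature reads and -0.88 in IVSC under all reads of the file. For both members 1 of the 8, no minimum CPM, could not change the ratio, because it only sets which miRNAs are compared. TMM, DESeq2 size factors, all reads and miRNA reads without miR-21 moved every log2 ratio of SVSC MDI to SVSC by -0.50, -0.43, -0.49 and -0.40, and of SVSC to IVSC by 0.35, 0.37, 0.18 and 0.33. Hence the log2 ratio of SVSC to IVSC reversed for miR-130a (0.19, 0.21, 0.028 and 0.18) and for miR-130b under TMM, DESeq2 size factors and without miR-21 (0.095, 0.12 and 0.082). That of miR-130b between SVSC MDI and IVSC MDI passed 2-fold under all reads (-1.02). The difference of the MDI log2 ratio between cultures moved to -0.54, -0.48, -0.78 and -0.56 for miR-130a and to -0.72, -0.66, -0.95 and -0.73 for miR-130b. Reads of miR-130b per read of miR-130a were 1.76 (SVSC MDI), 2.63 (SVSC), 2.14 (IVSC MDI) and 2.74 (IVSC) on exact reads, and 1.26 in IVSC MDI on mature reads, all of which match 1 hairpin only.

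In the additive fit 19 of 179 miRNAs passed for MDI and 5 for origin. DESeq2 gave 35 and 10 of 179, and mature reads gave 31 of 158 for MDI. Without the other factor both counts were 0 in edgeR, with 38 and 10 miRNAs at an unadjusted p under 0.05. miR-130a passed for MDI on mature reads (log2 -1.34), and without the other factor miR-130b did not (log2 -1.92) and the origin effect of miR-130a was 0.076. Adjusted p over the alternatives ran from 0.000871 to 0.130 for miR-130b and from 0.0387 to 0.216 for miR-130a with MDI. The cause of the changes in the fits was not tested.

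Of all miRNAs compared, 11 of 148 were higher in SVSC than in IVSC, against 24 of 150 (TMM) and 28 of 150 (DESeq2 factors). They were 24 of 155 without miR-21, 7 of 130 on mature reads and 18 of 122 on exact reads. Those higher with MDI in SVSC were 50 of 146, against 33 of 137 under all reads. Those lower with MDI in IVSC were 36 of 152, against 21 of 144 (all reads), 23 of 137 (mature) and 19 of 120 (exact). Between SVSC MDI and IVSC MDI 15 of 147 were lower, against 29 of 139 (all reads) and 25 of 155 (without miR-21). There 26 of 147 were higher, against 7 of 139 (all reads) and 9 of 117 (exact). No paired analysis was possible because each group has 1 library and so no second replicate number to pair; the additive fit blocks by culture. Leaving out a library leaves no residual degree of freedom in the additive fit. Depth limits SVSC MDI most, where a count of 0 allows up to 1.17 CPM.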

Other observations

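Rfam entries of the mir-130 family from other genomes also held reads, which the levels of the members leave out. The largest single entry had 6 reads in SVSC MDI, 96 in SVSC, 51 in IVSC MDI and 61 in IVSC. Entries of this family with reads numbered 3, 5, 4 and 3 in the same order. Rfam entries of the mir-454 family had at most 2 reads in an entry.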
